A study of Mus musculus with 30 samples.

Results

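Hbb-bs, Hbb-bt, Hba-a1, Hba-a2 and Alas2 are genes of red blood cells whose transcripts were counted here in RNA from islets, the hormone-secreting clusters of the mouse pancreas. These 5 genes, of 54232 gene IDs per library, were selected on the readout itself, because each lay lower with cadmium at both in vivo times. Islets came from male wild-type C57BL/6N mice that had received vehicle for 6 weeks (5 libraries), 1 mM cadmium chloride for 6 weeks (4 libraries), vehicle for 18 weeks (6 libraries) or 1 mM cadmium chloride for 18 weeks (5 libraries). Islets isolated from mice of the same strain were also kept for 96 hours in culture with vehicle (5 libraries) or 0.5 uM cadmium chloride (5 libraries). No group carried an engineered allele. The route of dosing, the ages of the mice, and whether a library pooled several animals, are not stated in the labels used here.

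Adult haemoglobin is a tetramer of alpha and beta globin chains, each of which holds a haem group that binds oxygen. Its messenger RNAs are among the most abundant of late erythroblasts and persist in reticulocytes, the young red cells that have lost their nucleus but still circulate with RNA. Alas2 encodes the erythroid form of 5-aminolevulinate synthase, the first and rate-limiting enzyme of haem synthesis, while Alas1 encodes the form that other cells use. Islets are densely vascularised, so blood is part of the tissue that is isolated.

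The 5 genes stand at 3 places in the genome (GRCm38). Hbb-bs (ENSMUSG00000052305, chr7:103826534-103828096, minus strand) and Hbb-bt (ENSMUSG00000073940, chr7:103812524-103813996, minus strand) are the adult beta globin genes of the haplotype carried by this strain. Hba-a1 (ENSMUSG00000069919, chr11:32283511-32284465, plus strand) and Hba-a2 (ENSMUSG00000069917, chr11:32296489-32297298, plus strand) are the adult alpha globin genes. Alas2 (ENSMUSG00000025270, chrX:150547375-150570638, plus strand) lies apart from the globin genes and overlaps 2 genes of the opposite strand, Apex2 (described below) and Mir3620. All 5 are protein-coding, and the globin genes have 3 exons each. The promoter stretches below, the 120 bases before the RefSeq start of each gene (RefSeq table of GRCm38.p6, in which all 5 genes matched), show how alike the copies are. Capitals mark 4 short motifs, read on both strands. TATAA is the core of the TATA box, and the motif CCAAT is that of the CCAAT box. The motif CACCC is part of the sites that Klf1 recognises, and the motif GATAA is the core recognised by GATA factors. The Hba-a1 promoter matched that of Hba-a2 at 117 of 117 aligned bases and is not repeated.
Hbb-bs, chr7:103827929-103828048, minus strand: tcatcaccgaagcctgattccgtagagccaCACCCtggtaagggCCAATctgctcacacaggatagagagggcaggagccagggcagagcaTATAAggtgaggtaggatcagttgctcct
Hbb-bt, chr7:103813924-103814043, minus strand: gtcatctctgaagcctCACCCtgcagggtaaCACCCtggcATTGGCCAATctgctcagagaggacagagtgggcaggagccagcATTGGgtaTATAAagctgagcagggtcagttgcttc
Hba-a2, chr11:32296372-32296491, plus strand: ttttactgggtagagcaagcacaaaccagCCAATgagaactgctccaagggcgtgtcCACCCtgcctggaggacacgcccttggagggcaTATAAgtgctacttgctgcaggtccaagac
Alas2, chrX:150547297-150547416, plus strand: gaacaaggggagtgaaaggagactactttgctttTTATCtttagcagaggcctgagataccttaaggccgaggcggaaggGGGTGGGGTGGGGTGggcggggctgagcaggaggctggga

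The beta pair matched at 73.9% of 119 aligned promoter bases. Within the 250 bases before the start, all 5 genes held GATAA and CACCC, and the 4 globin genes held CCAAT, which Alas2 did not. The TATAA nearest the start began 27 to 30 bases before it in the 4 globin genes and 207 bases before it in Alas2. Over 32851 promoters of that window length, TATAA was present in 22.8%, CCAAT in 33.8%, CACCC in 52.0% and GATAA in 22.6%. These matches are letters in a window, and no binding was measured.

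The copies of each pair are nearly the same in the transcript too, which limits what a count per gene means. The coding sequences of Hbb-bs and Hbb-bt differed at 1 of 441 bases, and those of Hba-a1 and Hba-a2 at 1 of 426. Of all 50-base windows of the Hbb-bs transcript, 65.8% also occurred in Hbb-bt, and 58.3% of those of Hbb-bt occurred in Hbb-bs. For the alpha pair the shares were 67.5% of the windows of Hba-a1 and 86.9% of those of Hba-a2. The labels do not state how reads that map to several places were counted, so the count of each copy is uncertain. If such reads were left out, the sum of a pair is too low as well. Alas2 has another limit: all of its exon bases lie within the span of Apex2, a DNA repair gene on the opposite strand, and 311 of them are shared with exons of Apex2. The strand setting of the counting is not given, so reads of Alas2 and of Apex2 cannot be told apart there, and Apex2 values are given beside those of Alas2.

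Totals per library were 49564350 to 58366797 counts in the 6-week groups, and those of cultured islets were 24197072 to 26549350. At 18 weeks they ran from 9092759 to 51852364, and vehicle library 4 (14751249), vehicle library 6 (9092759) and cadmium library 5 (21573301) were the lowest. Vehicle library 4 also stood apart in the globin genes, and the results at 18 weeks are therefore given with and without it. Levels are given as CPM, a gene's count relative to the TMM-scaled library size as edgeR computes it, on 1 scale for all 30 libraries. The markers of islet endocrine cells, 16 of 16 with reads, summed to at least 142700 CPM in every library. Acinar markers, from the exocrine tissue around the islets, summed to 2399 to 15050 in vehicle and 14020 to 230200 in cadmium libraries at 18 weeks. Nothing in the labels says that the libraries of a group come from separate animals or cultures. A p-value here sets a difference against the variation between libraries, and that variation may be technical.

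Hbb-bs encodes an adult beta globin chain. In the 5 vehicle libraries at 6 weeks Hbb-bs stood at 13.0, 9.76, 13.5, 6.06 and 7.93 CPM, and in the 4 cadmium libraries at 6.57, 5.93, 5.47 and 4.36 CPM. Vehicle libraries 1 and 3 were the highest, and 3 of the 4 cadmium libraries lay below every vehicle library. At 18 weeks the 6 vehicle libraries had a lowest value of 17.0, a median of 22.2 and a highest value of 91.3 CPM, the last in library 4. The 5 cadmium libraries stood at 25.6, 14.1, 24.7, 20.7 and 13.7 CPM, of which 2 lay below every vehicle library.

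Hbb-bt is the other adult beta globin gene. It stood at 2.96, 1.33, 2.54, 1.35 and 0.983 CPM with vehicle at 6 weeks, and at 1.26, 1.47, 0.779 and 0.761 CPM with cadmium. The groups overlapped, with 2 of 4 cadmium libraries below every vehicle library. At 18 weeks the vehicle libraries ran from 1.71 through a median of 2.03 to 14.8 CPM, again with library 4 at the top, and the cadmium libraries stood at 2.98, 1.51, 3.64, 1.82 and 1.31 CPM.

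Of the alpha chains, Hba-a1 stood at 2.81, 1.88, 3.84, 1.74 and 0.962 CPM with vehicle at 6 weeks and at 1.60, 1.47, 1.131 and 1.16 CPM with cadmium. Vehicle library 5 was the lowest of all 9, so no cadmium library lay below the vehicle group. After 18 weeks Hba-a1 ran from 4.12 through a median of 5.35 to 22.5 CPM with vehicle, and stood at 5.92, 3.27, 6.05, 5.11 and 3.19 CPM with cadmium. Hba-a2 stood at 2.38, 1.06, 2.03, 0.988 and 0.727 CPM with vehicle at 6 weeks and at 1.30, 0.695, 0.705 and 0.782 CPM with cadmium. After 18 weeks its vehicle libraries ran from 1.04 through 1.22 to 6.80 CPM, and its cadmium libraries stood at 1.54, 1.15, 2.22, 2.30 and 0.563 CPM. In both alpha genes the highest library at 18 weeks was vehicle library 4, and the other vehicle libraries overlapped the cadmium libraries.

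Alas2 was spread differently. With vehicle at 6 weeks it stood at 1.44, 1.14, 1.30, 0.924 and 0.748 CPM, and with cadmium at 1.02, 0.879, 0.983 and 1.04 CPM, inside the vehicle range. At 18 weeks the vehicle libraries ran from 3.92 through a median of 4.64 to 5.54 CPM. The cadmium libraries stood at 3.30, 3.59, 3.06, 2.60 and 2.11 CPM, all 5 below every vehicle library. Vehicle library 4 was the highest for Alas2 as well, at 5.54 CPM, and did not stand apart there.

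**Figure D1:**
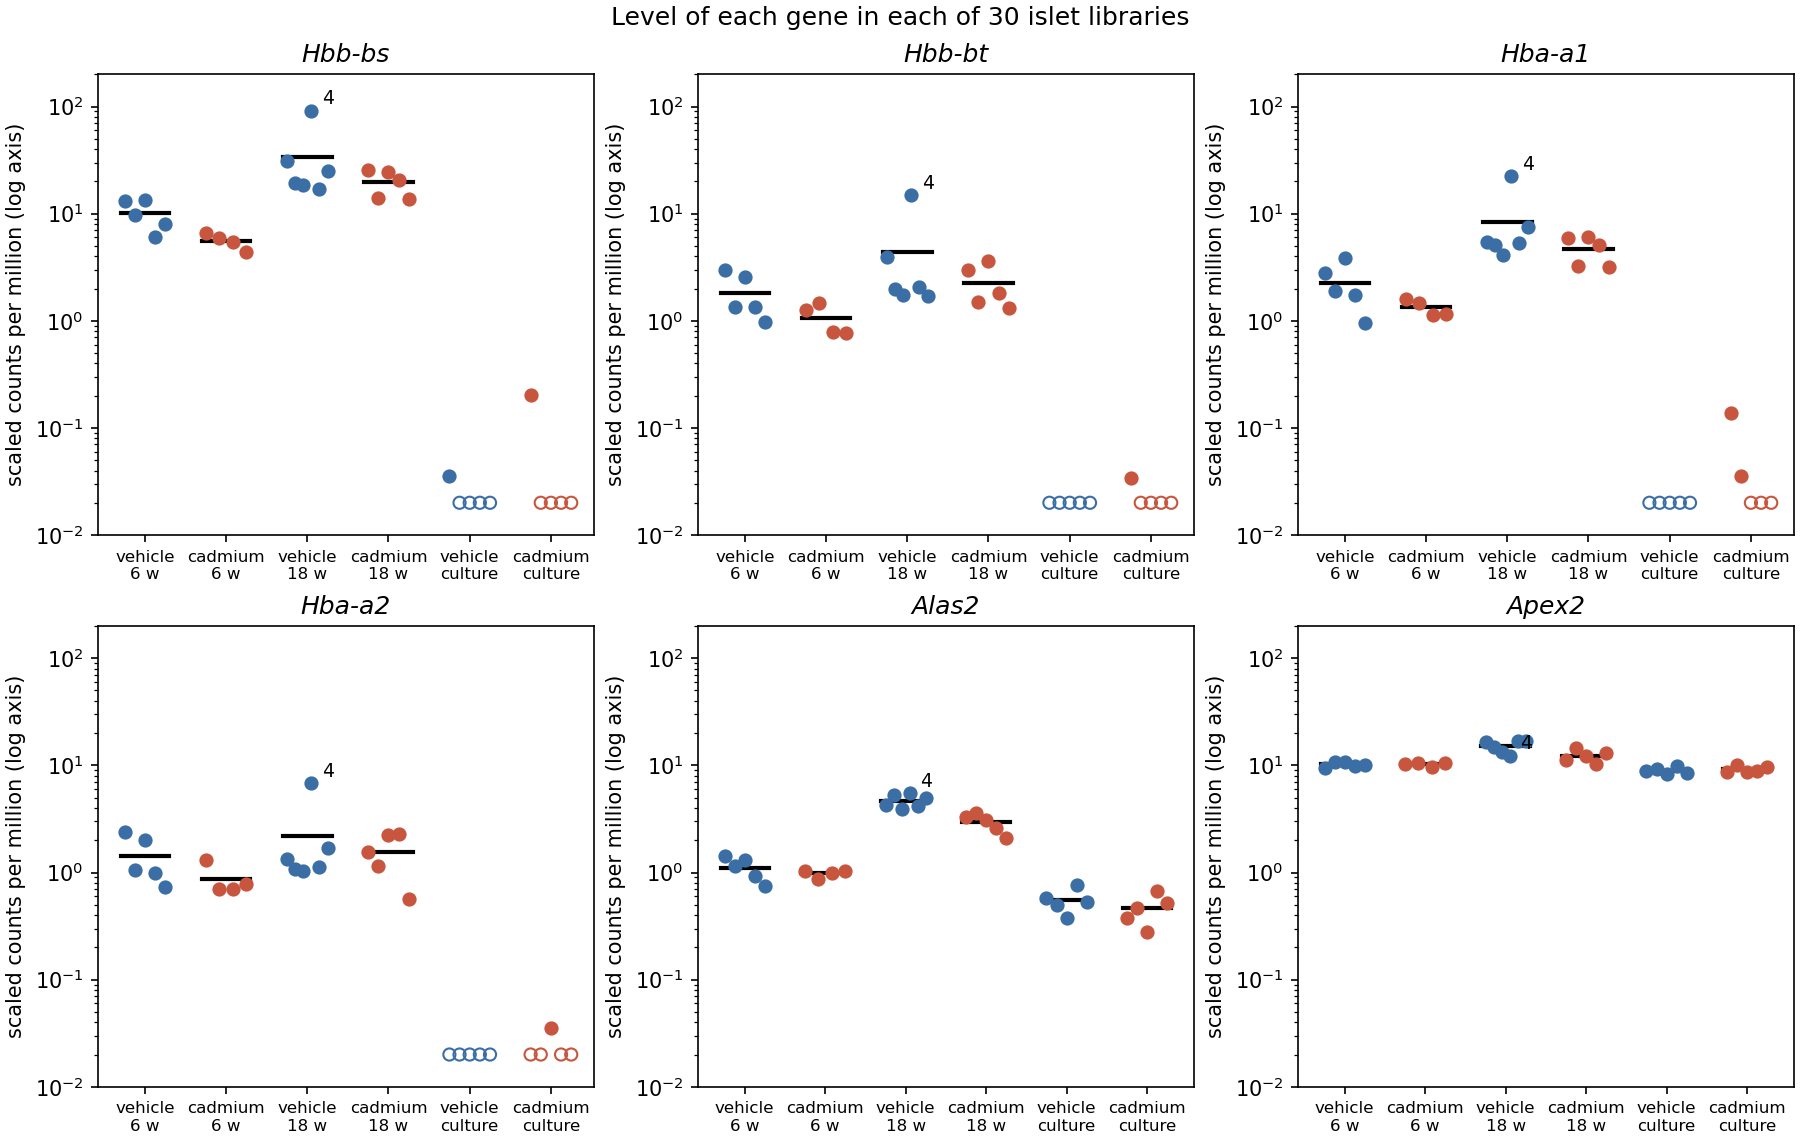
Scaled CPM (log axis) of the 5 genes and of Apex2 in each of 30 libraries, by group; filled points are libraries, black bars are group means where every library had reads, and open points are libraries with 0 counts, drawn at the foot of the axis. The 4 globin genes share a high value in 18-week vehicle library 4 (marked 4; Hbb-bs 91.3) and are at or near 0 in culture, whereas Alas2 keeps reads in all 10 cultured libraries.

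Genes were set side by side per kilobase of exon, which makes no allowance for bases shared between copies. If reads of shared bases were left out, the globin values are too low, and the order and ranks are uncertain. In vehicle islets at 6 weeks Hbb-bs was highest, at 13.1 ± 4.17 RPKM (SD, n = 5). Then came Hba-a1 at 2.76 ± 1.36, Hbb-bt at 2.61 ± 1.22, Hba-a2 at 2.15 ± 1.08 and Alas2 at 0.462 ± 0.116. The means of the 3 middle genes differed by less than their SDs. In the vehicle libraries at 18 weeks the means were 43.9 ± 37.4 RPKM for Hbb-bs (n = 6), 10.2 ± 8.67 for Hba-a1, 6.22 ± 7.36 for Hbb-bt, 3.26 ± 3.42 for Hba-a2 and 1.96 ± 0.273 for Alas2. These SDs measure the spread between libraries, with vehicle library 4 among those at 18 weeks, and not differences between genes in the same library. Hbb-bs had the highest CPM of the 5 genes in each of the 6 vehicle libraries at 18 weeks. In vehicle islets at 6 weeks 9.61% of the genes with a read lay above Hbb-bs per kilobase, and at 18 weeks 1.84% did. The 4 globin genes together had 295 to 2057 counts in each in vivo library.

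In cultured islets the globin genes had 0 counts in most libraries. Vehicle cultures held 1 globin read in all, an Hbb-bs read in library 1, among 127291578 counts. Cadmium cultures held 13, of which 11 were in library 1 (6 Hbb-bs, 1 Hbb-bt and 4 Hba-a1). Library 2 of that group held 1 Hba-a1 read, library 3 held 1 Hba-a2 read, and libraries 4 and 5 held none. A count of 0 over the vehicle cultures allows up to 3 counts, or 0.0236 CPM on raw totals. In culture Alas2 kept 77 counts over the 5 vehicle libraries and 67 over the 5 cadmium libraries, at 0.575, 0.493, 0.379, 0.772 and 0.526 CPM and at 0.376, 0.467, 0.281, 0.672 and 0.518 CPM.

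The globin genes passed the filter on low counts only through the fresh islets, so their difference from the vehicle cultures is described from counts, with no test. Against vehicle islets at 6 weeks, Hbb-bt was at least 74.7-fold lower, Hba-a1 at least 91.1-fold and Hba-a2 at least 58.6-fold, each against 3 counts over the group. For Hbb-bs, with 1 read, the ratio of pooled rates was 1218, with a 95% counting interval of 218.4 to 48130 that covers counting error only. Alas2 fell by 0.99 ± 0.23 on the log2 scale (edgeR quasi-likelihood test, Benjamini-Hochberg adjusted p = 0.00219), and 4 of 5 cultures lay below every fresh vehicle library. Of 17605 genes in that comparison 34.8% were called lower and 33.0% higher. Apex2 differed by -0.16 ± 0.07 (adjusted p = 0.0558, edgeR). Against vehicle islets at 18 weeks, Hbb-bt was at least 139.2-fold lower, Hba-a1 at least 269.9-fold and Hba-a2 at least 66.2-fold, and the ratio for Hbb-bs was 3401 (counting interval 610.1 to 134300). Alas2 then fell by 3.11 ± 0.19 (adjusted p = 2.06e-09, edgeR) and Apex2 by 0.79 ± 0.10 (adjusted p = 3.81e-06, edgeR), where 36.6% of 18449 genes were called lower and 30.6% higher. These fresh vehicle libraries entered the selection, and culture, batch and duration change together, so they cannot be told apart. In bulk RNA, fewer cells of a type and less RNA per cell cannot be told apart either.

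Markers of the other vascular cells went the same way, and their part in the result was not tested. All 15 endothelial markers fell in culture against vehicle islets at 6 weeks (median log2 fold change -2.92, beside a median of 0.00 over all genes), and their summed level was 799.4 to 996.9 CPM fresh and 64.1 to 112.5 CPM in culture. Among 11 platelet genes tested, 9 fell and 2 rose, with Pf4, a platelet chemokine, at -3.25 ± 0.28. Macrophage markers did not move as one: 6 of 15 fell and 5 rose, and their summed level was 251.7 to 572.3 CPM fresh and 596.2 to 675.6 CPM in culture. Acinar markers, at 25860 to 48080 CPM fresh, summed to 72.0 to 128.9 CPM in culture.

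The cadmium comparisons in vivo chose these genes, so their values are a description and carry no test. At 6 weeks the log2 fold change of cadmium against vehicle was -0.85 ± 0.23 (SE) for Hbb-bs, -0.79 ± 0.35 for Hbb-bt, -0.75 ± 0.34 for Hba-a1, -0.73 ± 0.36 for Hba-a2 and -0.19 ± 0.20 for Alas2. Leaving out 1 library moved 3 of these values by over 1.5 times. Hba-a1 stood at -0.47 without vehicle library 3, and Hba-a2 at -0.48 without vehicle library 1. Alas2 ran from -0.30 to -0.08, moved by leaving out vehicle library 1, 3 or 5. Of all 18080 genes tested 50.7% lay below 0, and the groups did not overlap for 0.608% in that direction, which held for none of the 5 genes. The summed globin level was 15.6 ± 5.64 CPM with vehicle (n = 5) and 8.86 ± 1.61 CPM with cadmium (n = 4). The range was 10.1 to 21.9 CPM with vehicle and 7.06 to 10.7 CPM with cadmium, so vehicle libraries 4 and 5 lay among the cadmium libraries. Apex2 stood in the same libraries at 0.00 ± 0.06 on the log2 scale.

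After 18 weeks the log2 fold changes were -0.75 ± 0.40 for Hbb-bs, -0.90 ± 0.56 for Hbb-bt, -0.78 ± 0.41 for Hba-a1, -0.38 ± 0.52 for Hba-a2 and -0.66 ± 0.16 for Alas2. Here 50% of 20911 genes lay below 0 and 0.588% were lower without overlap, Alas2 among them. The lower globin values rested on 1 library. Without vehicle library 4 they were -0.15 ± 0.21 for Hbb-bs, -0.03 ± 0.31 for Hbb-bt, -0.18 ± 0.21 for Hba-a1 and 0.39 ± 0.32 for Hba-a2. Without all 3 libraries of low total they were 0.00 ± 0.22, 0.04 ± 0.33, 0.04 ± 0.19 and 0.67 ± 0.25 in the same order. Alas2 kept its direction, at -0.60 ± 0.16 without library 4 and -0.48 ± 0.16 without the 3 libraries. Without library 4 the values of Hbb-bs, Hbb-bt and Hba-a1 were within 1 SE of 0 and that of Hba-a2 was above 0, while Alas2 remained lower.

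**Figure D2:**
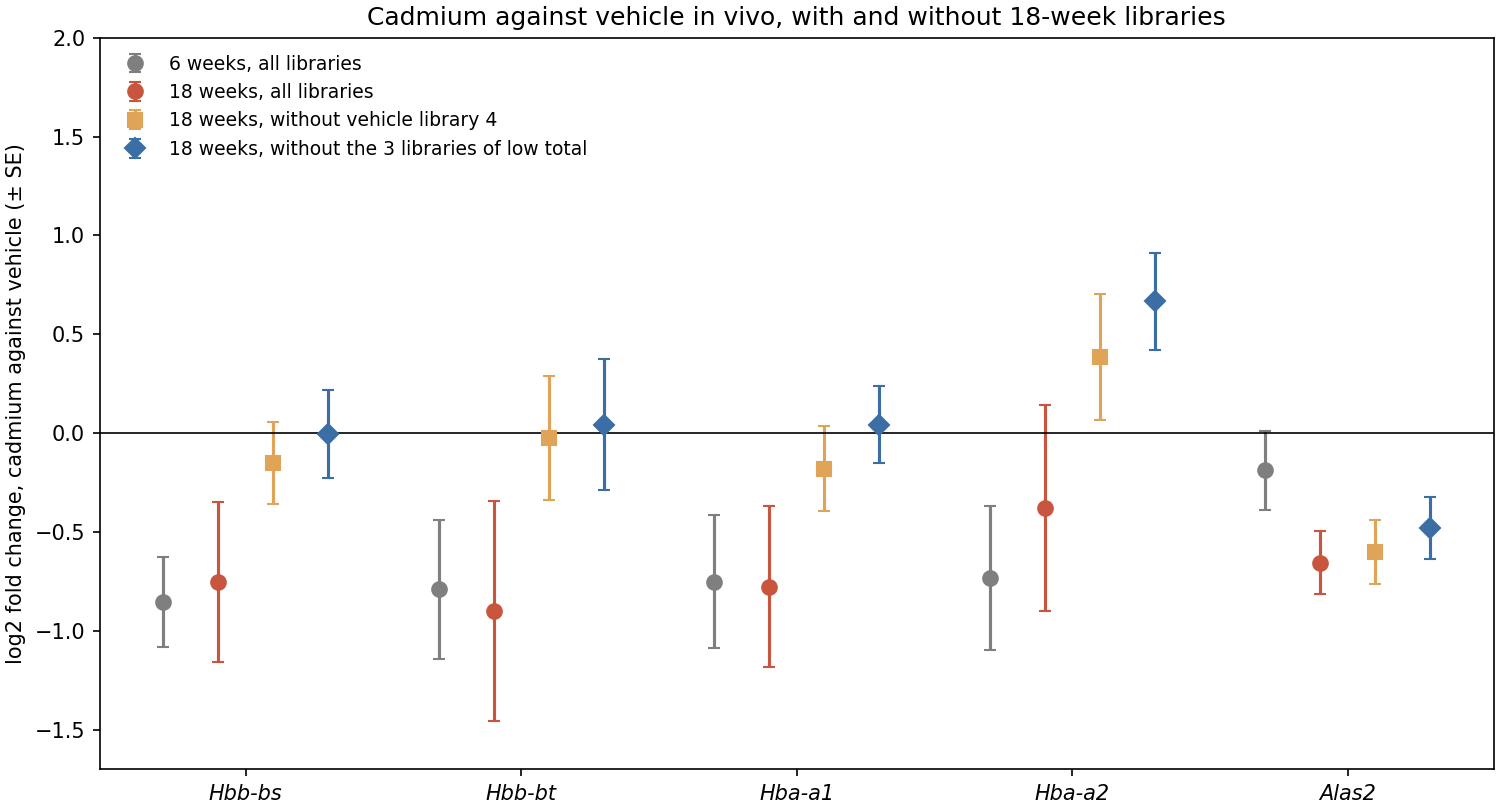
Log2 fold change of cadmium against vehicle (points, bars are ± SE) for each gene at 6 weeks and at 18 weeks with all libraries, without vehicle library 4, and without the 3 libraries of low total. At 18 weeks the 4 globin genes move from between -0.90 and -0.38 to between -0.18 and 0.39 when vehicle library 4 is left out, and Alas2 stays at -0.60.

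Apex2, which overlaps Alas2, was also lower with cadmium at 18 weeks, by a log2 fold change of -0.30 ± 0.11, with 3 of 5 cadmium libraries below every vehicle library. Without the 3 libraries of low total it stood at -0.34 ± 0.13. Per 100 counts of Apex2, Alas2 had 31.7 ± 7.45 counts with vehicle and 24.2 ± 4.85 with cadmium at 18 weeks, 10.9 ± 2.89 and 9.57 ± 0.836 at 6 weeks. In culture the values were 6.08 ± 1.22 and 5.03 ± 1.59. The ranges of the 2 groups at 18 weeks overlapped, from 24.6 to 44.9 with vehicle and from 16.4 to 29.7 with cadmium. The part of Apex2 reads in the Alas2 values was not tested.

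In culture, cadmium could be compared only for Alas2, since no globin gene passed the filter on low counts. The 2 groups overlapped, with 2 of 5 cadmium libraries below every vehicle library. Alas2 differed by -0.24 ± 0.27 on the log2 scale, with a 95% interval of -0.80 to 0.33 (edgeR, adjusted p = 0.933, unadjusted p = 0.388). DESeq2 gave -0.24 and an adjusted p of 1.00. Of 16743 genes 0.00597% were called higher and 0.0% lower, beside 5.49% at an unadjusted p under 0.05, and DESeq2 called 1 gene. The outcome over all genes depends on the model: with same-numbered libraries paired, edgeR called 223 genes. Alas2 then stood at -0.24 and did not pass (edgeR, adjusted p = 0.781). Apex2 differed by 0.04 ± 0.07.

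Between the vehicle groups, which differ in duration and in any batch, 3 of the 5 genes were higher at 18 than at 6 weeks. These vehicle libraries entered the selection of the genes, vehicle library 4 at 18 weeks among them, so the tests are not independent of it. Hbb-bs rose by 1.69 ± 0.41 on the log2 scale (edgeR, adjusted p = 0.00188), Hba-a1 by 1.80 ± 0.45 (adjusted p = 0.00238) and Alas2 by 2.03 ± 0.19 (adjusted p = 1.70e-07). For these 3 every library at 18 weeks lay above every library at 6 weeks, which held for 28.2% of all genes. Hbb-bt (1.16 ± 0.55, adjusted p = 0.0720) and Hba-a2 (0.45 ± 0.51, adjusted p = 0.439) did not pass. Of 20551 genes 35.9% were called higher and 35.9% lower, so being called was common in this comparison. Without vehicle library 4 at 18 weeks Hbb-bs stood at 1.11, Hba-a1 at 1.23 and Alas2 at 1.99, all still past the threshold, with Hbb-bt at 0.32 and Hba-a2 at -0.28. Summing the copies of a pair gave 1.62 ± 0.42 for beta (adjusted p = 0.00312, edgeR) and 1.43 ± 0.46 for alpha (adjusted p = 0.0113). Apex2 rose by 0.53 ± 0.09 (adjusted p = 0.000135, edgeR). Markers of other cells moved the other way in the same libraries, and their part in the result was not tested. Of the acinar markers 20 of 20 fell (median -2.06), as did 9 of 10 stellate and fibroblast markers (-2.10), 5 of 6 neutrophil markers (-2.02) and 8 of 11 lymphocyte markers (-1.55). Of the islet endocrine markers 11 of 16 fell (median -0.63). Without the 3 libraries of low total the counts that fell were 20, 8, 5, 10 and 11 in the same order.

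The balance between the 2 alpha copies differed between the 2 times. Hba-a2 gave 45.8%, 36.0%, 34.6%, 36.2% and 43.0% of the counts of the alpha pair in the vehicle libraries at 6 weeks. At 18 weeks the vehicle libraries ran from 17.4% to 23.2%, with no overlap and library 4 at 23.2%. The mean shares were 39.1 ± 4.99% (SD, n = 5) and 19.4 ± 2.16% (n = 6), a difference of -19.7 points (exact 2-sided permutation test, p = 0.00216, the smallest that 462 arrangements can give; adjusted over 12 tests, p = 0.0260). Each library's share rests on 76 to 418 counts, and the Wilson 95% interval of vehicle library 1 at 6 weeks, for example, was 40.1% to 51.7%. Hbb-bt gave 15.1 ± 3.48% of the beta pair at 6 weeks and 10.1 ± 2.56% at 18 weeks, a difference that did not pass the adjustment (exact permutation p = 0.0281, adjusted p = 0.113). Alpha chains gave 23.0 ± 4.64% and 21.9 ± 3.57% of all globin counts (exact permutation p = 0.632, adjusted p = 0.944). Since reads shared by the copies can be assigned in more than 1 way, a change of copy balance and a change of read assignment cannot be told apart.

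Cadmium libraries are described beside these values without a test. Hba-a2 gave 44.9%, 32.1%, 38.4% and 40.2% of the alpha pair with cadmium at 6 weeks, a mean of 38.9 ± 5.29%, within the range of the vehicle libraries but for 1. The cadmium libraries of 18 weeks stood at 20.7%, 26.1%, 26.8%, 31.0% and, in library 5, 12 of 80 counts, a mean of 23.9 ± 6.20%. Every one of the 11 libraries at 18 weeks lay below every one of the 9 at 6 weeks, whatever the treatment. Hbb-bt gave 15.8 ± 3.10% of the beta pair with cadmium at 6 weeks and 9.95 ± 1.85% at 18 weeks, beside vehicle means of 15.1% and 10.1%.

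**Figure D3:**
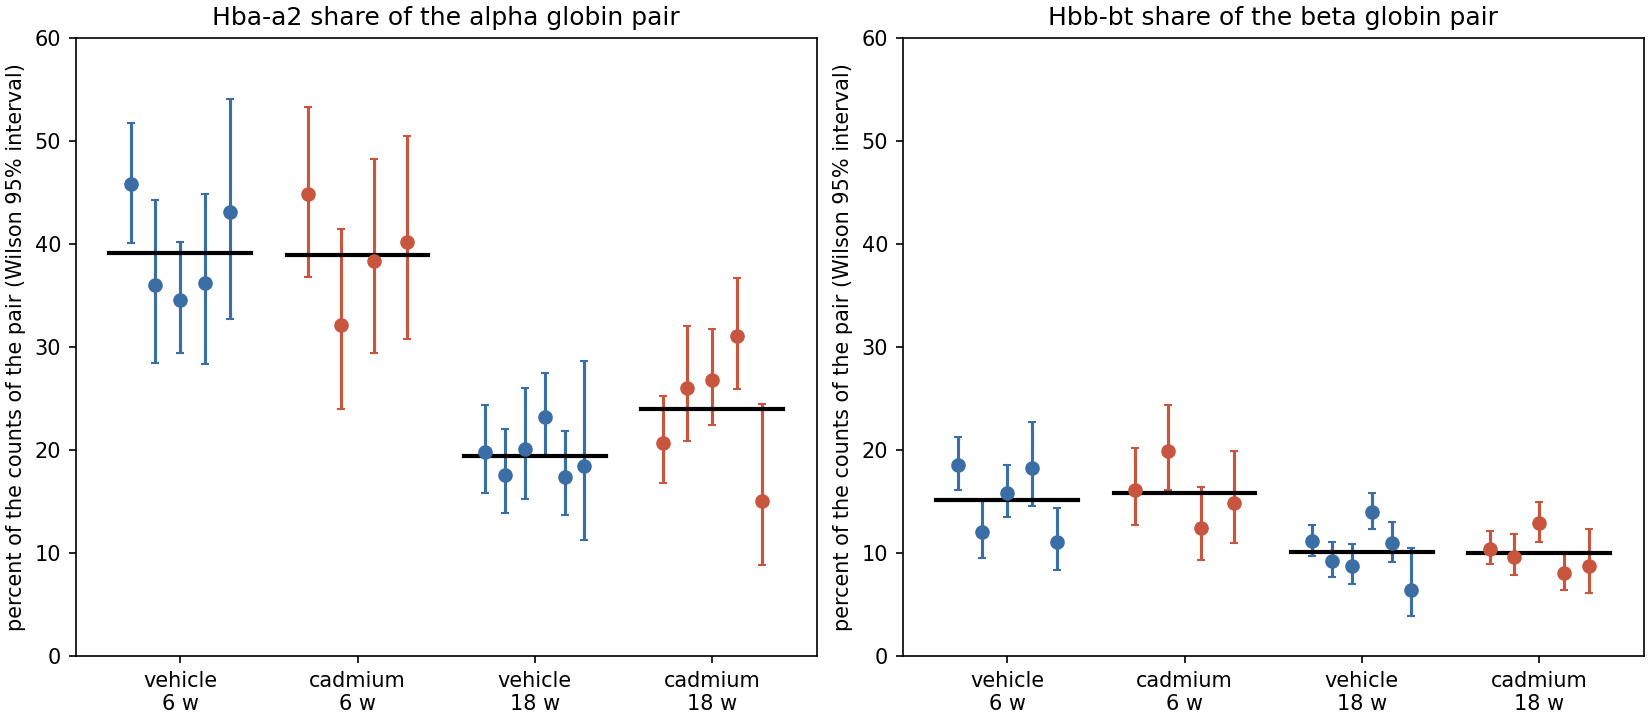
Share of Hba-a2 in the counts of the alpha globin pair and of Hbb-bt in the counts of the beta globin pair, in percent, for each in vivo library (points, with Wilson 95% intervals for counting error; black bars are group means). Hba-a2 has group means of 39.1% and 38.9% at 6 weeks and of 19.4% and 23.9% at 18 weeks, with no library of one time inside the range of the other.

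Alas2 was also set against the globin counts of the same library. Per 1000 globin counts it had 68.1, 81.3, 59.4, 91.1 and 70.6 counts with vehicle at 6 weeks. With cadmium at 6 weeks the values were 95.4, 91.9, 121.6 and 146.7, the lowest just above the highest vehicle value of 91.1. The globin counts in this ratio were chosen for lying lower with cadmium, so the ratio is not independent of the selection. At 18 weeks vehicle libraries ran from 40.9, in library 4, to 191.2, and cadmium libraries stood at 91.6, 178.9, 83.7, 86.8 and 112.5. The vehicle means were 74.1 ± 12.3 at 6 weeks and 132 ± 53.5 at 18 weeks, and the difference did not pass the adjustment (exact permutation p = 0.0476, adjusted p = 0.143). Without vehicle library 4 at 18 weeks the difference was 76.3 in place of 58.0, and it passed (adjusted p = 0.0317, exact permutation).

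**Figure D4:**
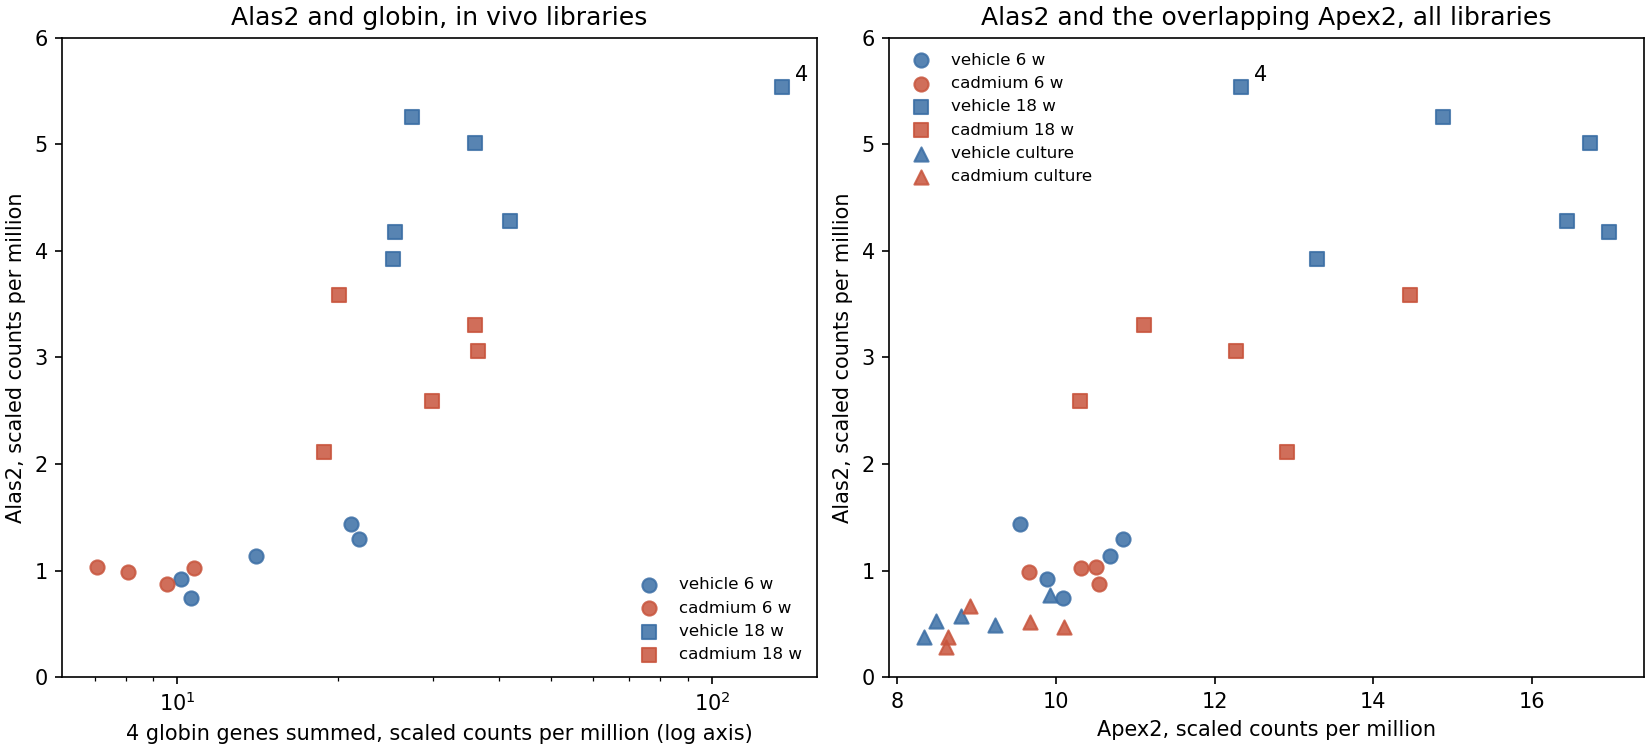
Alas2 (scaled CPM) in each library against the 4 globin genes summed (log axis, in vivo libraries) and against Apex2 (all 30 libraries), coloured by treatment and shaped by time or culture. Vehicle library 4 at 18 weeks (marked 4) has the highest globin level, 135.4, with an Alas2 level near that of its group, and Alas2 at 18 weeks is lower in all 5 cadmium libraries than in all 6 vehicle libraries.

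Across the 20 in vivo libraries, the globin genes varied together within groups. Deviations of log2 CPM from the group mean gave Pearson's r of 0.92 between Hbb-bs and Hbb-bt (Spearman's rho 0.83), 0.88 with Hba-a1 (rho 0.82) and 0.87 with Hba-a2 (rho 0.79). By permutation within groups, adjusted over 13 relations, p was 0.000953 for each of the 3 r values and 0.00212 for each rho. Without the 2 libraries farthest from the median of Hbb-bs (vehicle library 4 at 18 weeks and vehicle library 4 at 6 weeks) r was 0.87, 0.81 and 0.79. Within the 9 libraries of 6 weeks it was 0.79, 0.74 and 0.78, and within the 11 of 18 weeks 0.95, 0.95 and 0.90. Copies of a pair share reads, whereas Hbb-bs and Hba-a1 shared 0.0% of their 50-base windows. With Alas2 the relation did not pass (r = 0.48, adjusted permutation p = 0.0631; rho = 0.49, adjusted p = 0.121). Ranked by r with Hbb-bs among 22305 genes, the other 3 globin genes came first, and Chchd5, Cox14, Iscu, Lyplal1, Rfxap, Ccnq and Art3 followed at 0.83 to 0.77. Without vehicle library 4 at 18 weeks the genes that followed had r from 0.55 (Rfxap) to 0.76 (Art3), and the 3 globin genes from 0.77 to 0.84. Alas2 ranked 977.

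Markers of other cells were set against Hbb-bs in the same way. Macrophage markers gave r = 0.45 (adjusted permutation p = 0.0436; rho = 0.55, adjusted p = 0.0588), with 0.75 within 6 weeks, 0.40 within 18 weeks and 0.38 without the 2 farthest libraries. Islet endocrine markers gave r = 0.57 (adjusted permutation p = 0.0436; rho = 0.46, adjusted p = 0.121), with 0.12 within 6 weeks and 0.68 within 18 weeks. With raw totals in place of TMM scaling neither passed. Neutrophil markers gave 0.58 (adjusted permutation p = 0.0606), which was 0.26 without the 2 farthest libraries. Endothelial markers gave 0.08 over all 20 libraries, with 0.75 within 6 weeks and -0.21 within 18 weeks, and platelet markers gave -0.10. Stellate and fibroblast markers gave 0.12 over all libraries, with 0.86 within 6 weeks, the highest of the 13 relations there, and -0.08 within 18 weeks. Lymphocyte markers gave 0.33, with 0.56 within 6 weeks and 0.27 within 18 weeks.

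At 6 weeks these markers moved with the groups as follows, and their part in the globin values was not tested. All 15 macrophage markers lay lower with cadmium, at a median log2 fold change of -0.60, and their summed level was 251.7 to 572.3 CPM with vehicle and 195.0 to 422.8 CPM with cadmium. Of 15 endothelial markers 12 lay lower (median -0.13), and of 13 platelet genes 11 lay higher (median 0.22). At 18 weeks 14 of 15 macrophage markers (median 0.35), 12 of 15 endothelial markers (median 0.16) and 9 of 10 platelet genes (median 0.41) lay higher with cadmium. The median of all genes was 0.00 in both comparisons.

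Other genes that mark the red cell lineage gave few reads. Of 7 embryonic and minor globin chains none passed the filter, and Hbb-bh0, Hbb-bh1, Hbb-bh2 and Hba-x had no read in any library. Slc4a1, the band 3 anion exchanger of the red cell membrane, had 53 counts over the 5 vehicle libraries at 6 weeks, of which 28 were in library 3 and 19 in library 1, the libraries with most Hbb-bs. Over the cadmium libraries of 6 weeks it had 9 counts (0.042 CPM on raw totals, beside 0.203 with vehicle). The 18-week vehicle and cadmium groups had 15 and 8 (0.0699 and 0.0364 CPM), and the cultures 2 and 6 (0.0157 and 0.0469 CPM). Gata1, the erythroid and megakaryocyte transcription factor, had 11 counts with vehicle and 10 with cadmium at 6 weeks (0.0422 and 0.0466 CPM). At 18 weeks it had 3 and 8 counts (0.014 and 0.0364 CPM). Klf1, an activator of beta globin, had 119 counts with vehicle at 6 weeks and 127 in vehicle culture. On raw totals these were 0.456 and 0.998 CPM, so Klf1 stood higher in culture, where globin reads were at or near 0. That difference was not tested. The counts of these genes are sums over groups that differ in number of libraries and in depth.

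The lists of genes for the red cell membrane, reticulocytes and haem did not follow the globin genes between the vehicle groups. Between vehicle at 18 and at 6 weeks 9 of 12 red cell membrane genes fell and none rose (edgeR, median -0.98), where 35.9% of all genes fell and the median of all genes was 0.00. Among them were Tmod1, tropomodulin (-0.98 ± 0.09), and Add2, an adducin of the membrane skeleton (-0.99 ± 0.14). The list is not specific to red cells: it summed to 206.5 to 218.0 CPM in vehicle culture, where globin reads were at or near 0. In fresh vehicle islets it summed to 284.1 to 298.9 CPM at 6 weeks and 193.2 to 215.1 CPM at 18 weeks. Of 12 reticulocyte genes tested 7 fell and 1 rose: Abcb10, a mitochondrial transporter needed for haemoglobin synthesis, fell by 0.64, and Bnip3l, which clears mitochondria, rose by 0.43 ± 0.08. Of 8 other haem synthesis genes 6 fell. Cpox fell by 0.83 ± 0.07, Urod by 0.55 ± 0.07 and Alas1, the enzyme that Alas2 replaces in red cells, by 0.29 ± 0.08. Of 12 haem and haemoglobin clearance genes 7 fell and 1 rose, with Cd163, the macrophage receptor for haemoglobin bound to haptoglobin, at -5.39 ± 0.67 and Hmox1, haem oxygenase, at -0.99 ± 0.20. Macrophage markers fell in 14 of 15 cases. Without the 3 libraries of low total the counts that fell were 9 of 12 membrane, 7 of 12 reticulocyte, 6 of 8 haem synthesis and 7 of 12 clearance genes, with 2 clearance genes rising.

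With cadmium, these lists were spread on both sides of 0. At 6 weeks 6 of 11 membrane genes, 7 of 12 reticulocyte genes, 6 of 8 haem synthesis genes and 9 of 12 clearance genes lay lower, at medians of -0.02, -0.03, -0.04 and -0.08. At 18 weeks 3 of 12, 2 of 12, 2 of 8 and 2 of 12 lay lower, at medians of 0.11, 0.05, 0.12 and 0.12. The 8 haem synthesis genes other than Alas2 thus had a median of 0.12 at 18 weeks, where Alas2 stood at -0.66. In vehicle cultures, against vehicle islets at 6 weeks, 10 of 11 membrane genes fell and none rose (edgeR, median -0.82). Over all genes 34.8% fell. Of 11 reticulocyte genes 5 fell and 3 rose, and of 8 haem synthesis genes 2 fell and 2 rose. Of 11 clearance genes 3 fell and 4 rose, with Hmox1 higher by 1.94 ± 0.16 (adjusted p = 2.16e-07, edgeR). Against vehicle islets at 18 weeks 4 of 10 membrane genes fell and 2 rose (median -0.33).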

How the data were processed

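The values are raw read counts per gene that the authors deposited for each of 30 libraries. Per the submitters' processing notes, cutadapt 1.13, STAR, HTSeq 0.6.1p1, DESeq2 and the build mm10 were used. Annotation release, strand setting and treatment of multiply mapped reads are not stated in the labels. Of 54232 gene IDs, 99.72% matched a symbol.

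The genes described, the gene lists and the tests were chosen with earlier results of these data known. Each comparison was fitted on its 2 groups with edgeR 4.0.16 (R 4.3.3): filterByExpr (minimum count 10, minimum total 15), TMM scaling, the quasi-likelihood test and Benjamini-Hochberg adjustment over all genes tested, with a threshold of 0.05. The fit was checked on simulated counts. CPM values share 1 TMM scaling over all libraries, and RPKM divides them by the bases in all exons of a gene. Ratios were compared by exact permutation of libraries (scipy 1.17.1), adjusted over 12 tests. The 4 tests planned for culture could not be computed because globin counts were at or near 0, and those for cadmium in vivo are given without p, since that contrast chose the genes. Relations used 100000 permutations within groups and list means of log2 CPM (prior count 2). All 5 genes are named. From other lists up to 3 genes of smallest p are named, except Alas1, Hmox1, Bnip3l, Slc4a1, Gata1 and Klf1, chosen after their values were seen. Likeness names the 10 genes of highest r. Intervals are at 95%. Alternatives were DESeq2 1.42.0, no filter, 1 fit of all libraries, a replicate block, each library left out, summed copies, other scaling and depth. The list counts without the libraries of low total were added after seeing the data.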

Additional observations from a re-analysis of the deposited data

Results flagged for a closer look

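In 43 sets of libraries of 1 group, 10 values stood far from the others by Dixon's criterion. Chance meets it in about 1 of 20 sets of normally spread values. That rate does not hold for sets of mostly 0 counts, and the 4 globin genes varied together, so their flags are not separate. Vehicle library 4 at 18 weeks stood apart in the 4 globin genes, at 91.3 CPM for Hbb-bs, 14.8 for Hbb-bt, 22.5 for Hba-a1 and 6.80 for Hba-a2, and not in Alas2. Its total of 14751249 counts was the second lowest of the series, and its part in the globin values was not tested. At 6 weeks cadmium library 1 stood apart for Hba-a2, at 1.30 CPM. In culture such values were single libraries with reads where most had none: 0.0359 CPM of Hbb-bs in vehicle library 1, and 0.205 of Hbb-bs, 0.0342 of Hbb-bt and 0.137 of Hba-a1 in cadmium library 1, with 0.0352 of Hba-a2 in cadmium library 3.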

How the results depend on the processing

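Of 665 values under other settings, 650 kept their direction and side of the threshold, or moved by less than the spread between libraries where there was no test. At 18 weeks that spread includes vehicle library 4, so a value could change sign and still count among the 650. With cadmium at 18 weeks this held for Hbb-bt, at 0.04 without the 3 libraries of low total in place of -0.90. It also held for Hba-a2, at 0.39 without vehicle library 4 in place of -0.38. With the 3 libraries of low total left out, the median log2 fold change of the 5 genes with cadmium at 18 weeks was 0.043 in place of -0.75. Leaving out 1 library at a time gave -0.88 to -0.15, the last without vehicle library 4. Hba-a2 between the vehicle groups turned from 0.45 to -0.28 without that library, the lowest of a range up to 0.71 over single libraries left out, and to -0.34 without the 3 libraries. Hbb-bt passed there in 5 settings, at 1.20 to 1.40. The difference of the alpha share between vehicle groups ran from -2.90 to 0.047 points, above 0 only without vehicle library 1 at 18 weeks, and that of Alas2 per 1000 globin counts from 46.2 to 76.3. With raw totals, r with Hbb-bs was 0.43 for macrophage and 0.35 for islet endocrine markers, neither past the threshold. Same-numbered libraries had correlations of -0.09 to 0.27 in vivo and 0.07 to 0.29 in culture. In culture every pair was above 0, and no comparison had every pair above 0.1. Whether same-numbered libraries belong together is not stated in the labels, and the main fits treat the numbers as names. With a replicate block 223 genes were called with cadmium in culture, against 1 without it and 0 with all 30 libraries in 1 fit, and Alas2 did not pass in any of them. With the block the medians of the 5 genes were -0.88 at 6 weeks and -0.54 at 18 weeks and 3 of them passed between the vehicle groups, as without it. Depth limits the globin values in culture, where 0 counts allow 3, and the Hba-a2 shares, which rest on as few as 76 counts.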
